A study of Rattus norvegicus with 4 samples.

Results

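Protein kinase A is the cAMP-dependent protein kinase, and the 9 genes described here encode its catalytic subunits (Prkaca, Prkacb), its regulatory subunits (Prkar1a, Prkar1b, Prkar2a, Prkar2b) and its heat-stable inhibitor peptides (Pkia, Pkib, Pkig). They were chosen by symbol, and each was read from the probe set that carries that symbol alone in the platform annotation, or from the brighter one where a gene has more. All 9 were found among the 14506 genes measured that way. The choice was made with the contrast of obese against lean pools known, so the differences between pools are given as a description, without a test.

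RNA came from the liver of male WNIN/Ob rats aged 4 months, fed a stock diet and given no treatment. The obese group is 1 pool of RNA from 4 obese rats and the lean group 1 pool from 4 lean rats of the same strain. Each pool was hybridised to 2 Affymetrix Rat Gene ST arrays, called original and technical replicate. The arrays of a pool are technical replicates, so no value below has a replicate check across animals and no p-value was computed, and the number of arrays limits the precision. In bulk liver, fewer cells of a type and less RNA per cell cannot be told apart.

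In the resting holoenzyme a dimer of regulatory subunits holds the catalytic subunits inactive. Hormones such as glucagon and adrenaline raise cAMP through G protein-coupled receptors, cAMP binds the regulatory subunits, and the released catalytic subunits phosphorylate enzymes of glycogen, glucose and lipid metabolism as well as the transcription factor CREB. The inhibitor peptides bind free catalytic subunit as a pseudosubstrate and carry it out of the nucleus. Skeletal muscle, heart and brain are tissues known for abundant Pkia.

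Pkia stood far lower in the obese pool, and the other 8 genes differed little between the pools. A gene was counted as past the 1.5-fold rule on 3 conditions. The pool means had to differ 1.5-fold or more, no obese array could come within 0.25 log2 units of a lean array, and the brighter pool had to reach a log2 level of 5.48, which is the median of all genes and is called the level filter here. The 2-fold rule set these limits at 2-fold and 0.5. Of the 9 genes, 1 (Pkia) passed the 1.5-fold rule as lower in obese liver and 0 passed it as higher. Of all genes 2.43% were lower and 2.19% higher by this rule, and 1.48% were lower by the 2-fold rule, which Pkia also passed. The number higher by the 1.5-fold rule was 317 genes, or 553 when the obese technical replicate array was left out. The median difference of the 9 genes was -0.01 on the log2 scale, beside 0.03 over all genes. Of the 9 genes, 6 reached the level filter in at least 1 pool, and Pkib, Prkar1b and Prkar2b lay below it in both pools.

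**Figure D1:**
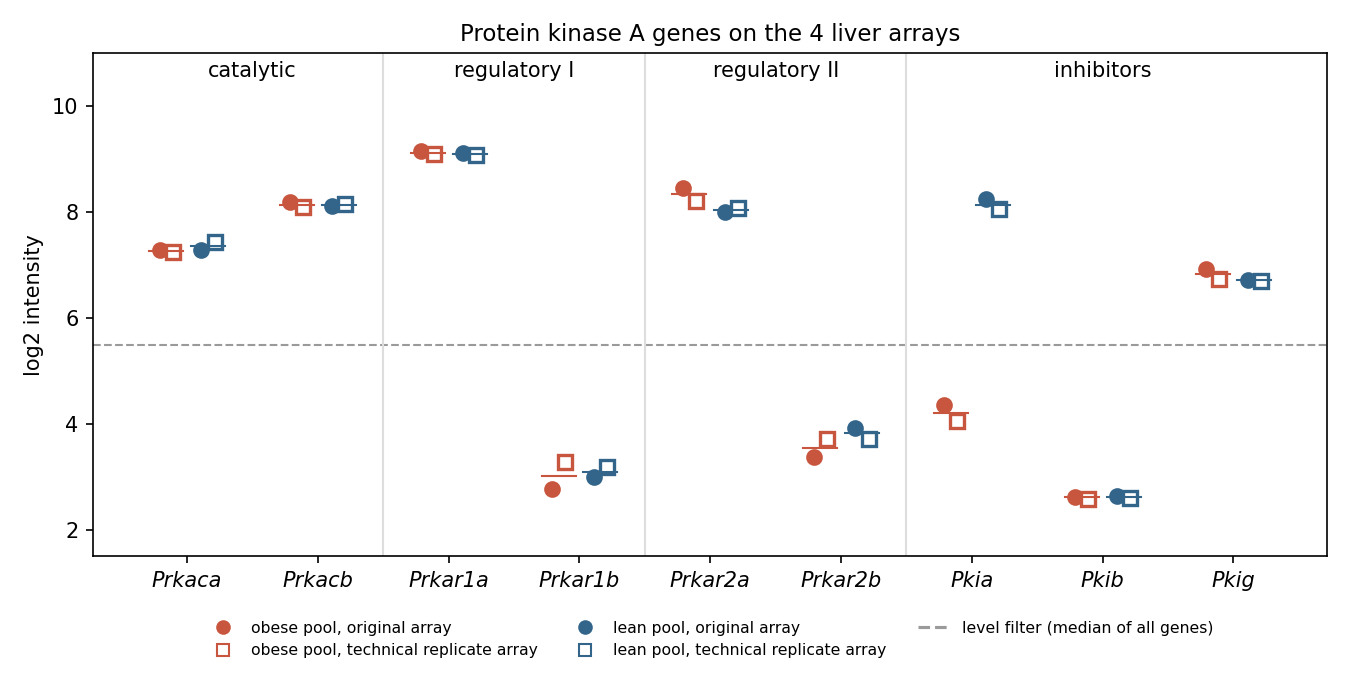
Log2 intensity (vertical axis) of the 9 protein kinase A genes on each of the 4 arrays, grouped by role. Obese arrays stand left of lean arrays, filled circles are original and open squares technical replicate arrays, short bars are the mean of a pool's 2 arrays, and the dashed line is the level filter of 5.48; Pkia is the gene whose pools stand on opposite sides of it. Levels of different probe sets cannot be set against each other.

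Of the catalytic subunits, Prkaca encodes the alpha form, the main catalytic subunit of most tissues. Its log2 intensity was 7.29 and 7.24 on the obese arrays, against 7.28 and 7.43 on the lean arrays. The arrays of the pools overlapped, and the difference was -0.09, with a range of -0.19 to 0.01 over the 4 pairs of an obese and a lean array. Prkacb encodes the beta form, a close relative of the alpha form that assembles with the same regulatory subunits. It stood at 8.19 and 8.09 in the obese pool and at 8.12 and 8.15 in the lean pool. These arrays overlapped as well, with a difference of 0.01 (-0.05 to 0.07 over the pairs). A second, dimmer probe set of Prkacb gave 6.57 and 6.35 in the obese pool and 6.54 and 6.82 in the lean pool. Its difference was -0.22, and its arrays also overlapped.

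CREB binds the cAMP response element, whose core is also common in promoters at large. It stood in the promoters of both catalytic genes and in 1 of 3 promoters of Pkig, and in 21.2% of all promoters. RefSeq promoters of assembly GRCr8, from 250 bases before to 50 after a gene's start, were found for 7 of the 9 genes, 10 promoters in all, and none was listed for Pkia and Prkar2a. The full element TGACGTCA stood in 0 of the 10, and in 1.83% of all 33469 promoters of the same length. The core TGACG, searched on both strands and contained in the full element, stood in 3 of the 10 promoters, or 30.0%, and in 21.2% of all promoters. A match of letters is a description and not a binding site. The stretches around the 4 matches are shown to place the motif, 5′ to 3′ on the gene's own strand, with the motif or its reverse complement CGTCA in capitals.
Prkaca, chr19:41083366-41083394, minus strand: gtctgcaactcgCGTCActcatccaggag
Prkaca, chr19:41083252-41083280, minus strand: ggactgcgggggCGTCAcggacagaggac
Prkacb, chr2:238386274-238386302, minus strand: tcccctcccctcCGTCActcctgcttacg
Pkig, chr3:172786036-172786064, plus strand: gtttggcgaatgTGACGggcctgggatgc
In Prkaca the motifs began at positions -193 and -79 from the gene's start, in Prkacb at position 26 and in Pkig, in 1 of its 3 promoters, at position -227. The pools of Prkaca and Prkacb overlapped in level, and those of Pkig differed by the small amount given below.

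The regulatory subunits of type I form holoenzymes that are mostly soluble in the cytosol. Prkar1a, the widely expressed alpha form, had log2 intensities of 9.15 and 9.09 in the obese pool, against 9.11 and 9.08 in the lean pool. The arrays overlapped, and the difference of 0.03 ranged from -0.01 to 0.08 over the pairs. Prkar1b, the beta form best known from brain, had 2.77 and 3.27 in the obese pool and 3.0 and 3.18 in the lean pool. Both lean arrays lay between the obese arrays, whose gap of 0.50 was the largest within a pool over the 9 genes, and both pools lay below the level filter. Its difference of -0.07 ranged from -0.41 to 0.26.

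Type II regulatory subunits are tethered to membranes and cytoskeleton by A-kinase anchoring proteins, and the 2 genes went opposite ways by small amounts. Prkar2a, the widely expressed alpha form, had 8.46 and 8.21 in the obese pool, against 8.0 and 8.08 in the lean pool. Both obese arrays were higher than both lean arrays, by at least 0.13. The fold was 1.23 (1.10 to 1.38 over the pairs), which does not reach the 1.5-fold rule. Prkar2b, the beta form known from adipose tissue and brain, had 3.38 and 3.72 in the obese pool and 3.92 and 3.72 in the lean pool. The technical replicate arrays of both pools met at 3.72, the level was below the filter in both pools, and the difference of -0.27 ranged from -0.54 to 0.00. Without the obese original array its difference was -0.10, and without the lean original array -0.17.

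Among the inhibitors the pools were far apart for Pkia alone. Pkia, the alpha form, had log2 intensities of 4.35 and 4.05 in the obese pool, against 8.24 and 8.05 in the lean pool. On the linear scale these were intensities of 20.4 and 16.6 in the obese pool and of 302 and 265 in the lean pool. Both obese arrays lay far under both lean arrays, and the gap of 3.70 between the nearest arrays compares with gaps of 0.29 and 0.19 within the obese and the lean pool. The obese level was 15.4-fold lower, with a range of 13 to 18.2 over the pairs. The size of this fold is not firm, because Pkia did not reach the level filter in the obese pool and may be at background there.

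Pkib and Pkig did not follow Pkia. Pkib, the beta form, known for its expression in testis, had 2.62 and 2.59 in the obese pool and 2.64 and 2.60 in the lean pool, with overlapping arrays and both pools below the level filter. Pkig, the widely expressed gamma form, had 6.92 and 6.74 in the obese pool, against 6.72 and 6.70 in the lean pool. Both obese arrays were higher, but the nearest arrays lay 0.02 apart, and the fold was 1.09 (1.01 to 1.16). Over the 9 genes the obese arrays were both above the lean arrays for 2 (Prkar2a, Pkig) and both below for 2 (Pkia and, by a margin that rounds to 0.00, Prkar2b), and the arrays of 5 overlapped. Of all genes 27.5% had both obese arrays above and 18.5% had both below the lean arrays.

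**Figure D2:**
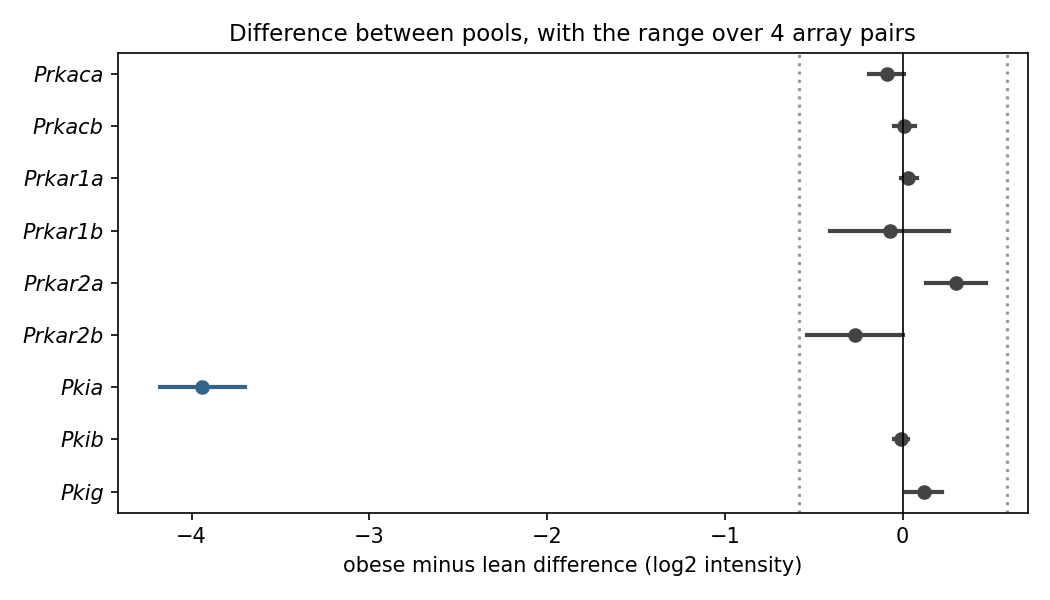
Obese minus lean difference in log2 intensity (horizontal axis) of the 9 genes. Points are differences between pool means, bars are ranges over the 4 pairs of an obese and a lean array, and dotted lines mark a factor of 1.5; Pkia, in blue, lies at -3.94 and the other 8 lie between -0.27 and 0.30.

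Markers of skeletal muscle were lower in the obese pool together with Pkia. All 17 measured markers of 20 listed were lower by the 2-fold rule, with a median difference of -5.89 (-7.07 to -3.27), beside -3.94 for Pkia. Most of these differences, like that of Pkia, end at obese levels under the level filter, so they have no firm order. Among them were Myl1 and Myh1, a light and a heavy chain of fast myosin, at -7.07 and -6.98, Tnnt3, a fast troponin, at -6.36, and Myot, a Z-disc protein, at -6.33. Summed over the 17 markers, the linear intensity was 558.4 and 578 on the obese arrays, against 35030 and 36340 on the lean arrays. No intensity in the whole data set was at 0, so a value above 0 does not show that a marker was detected. On the obese arrays 14 of the 17 did not reach the level filter. With 1 pool per phenotype, skeletal muscle RNA in the lean pool and the phenotype itself cannot be told apart as the source of the difference of Pkia. The muscle list was written with earlier results of these data known, and its count therefore gives no independent support for the direction.

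Markers of the labelled tissue were present on all arrays. The 10 hepatocyte markers summed to intensities of 74320 and 73990 in the obese pool, against 68310 and 71450 in the lean pool, and 0 of them passed the 1.5-fold rule. Alb, the albumin gene, had a difference of 0.08 and Apoa1, which encodes an apolipoprotein of high-density lipoprotein, one of 0.41. Of the remaining lists, 3 of 8 markers of stellate cells and fibroblasts were lower, namely Des at -4.05, a muscle filament gene as well, Dcn at -1.90 and Col1a1 at -0.97. Of 7 heart markers 1 was lower (Myh6, -0.93), and of 8 markers of neurons and Schwann cells 1 was higher (Mbp, 0.70). None of the 8 adipocyte, 8 macrophage, 7 lymphocyte, 5 endothelial, 4 bile duct and 6 exocrine pancreas markers measured passed the rule. The level filter was reached in a pool by 3 adipocyte, 1 lymphocyte, 0 bile duct and 1 pancreas markers, and by 1 heart and 1 neuronal marker. The rest of these lists could not pass whatever their difference. All 8 macrophage and 5 endothelial markers reached it. When 1 array was left out, 1 endothelial marker was lower without the obese original array, and 1 pancreas marker was lower without the obese technical replicate or the lean original array.

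**Figure D3:**
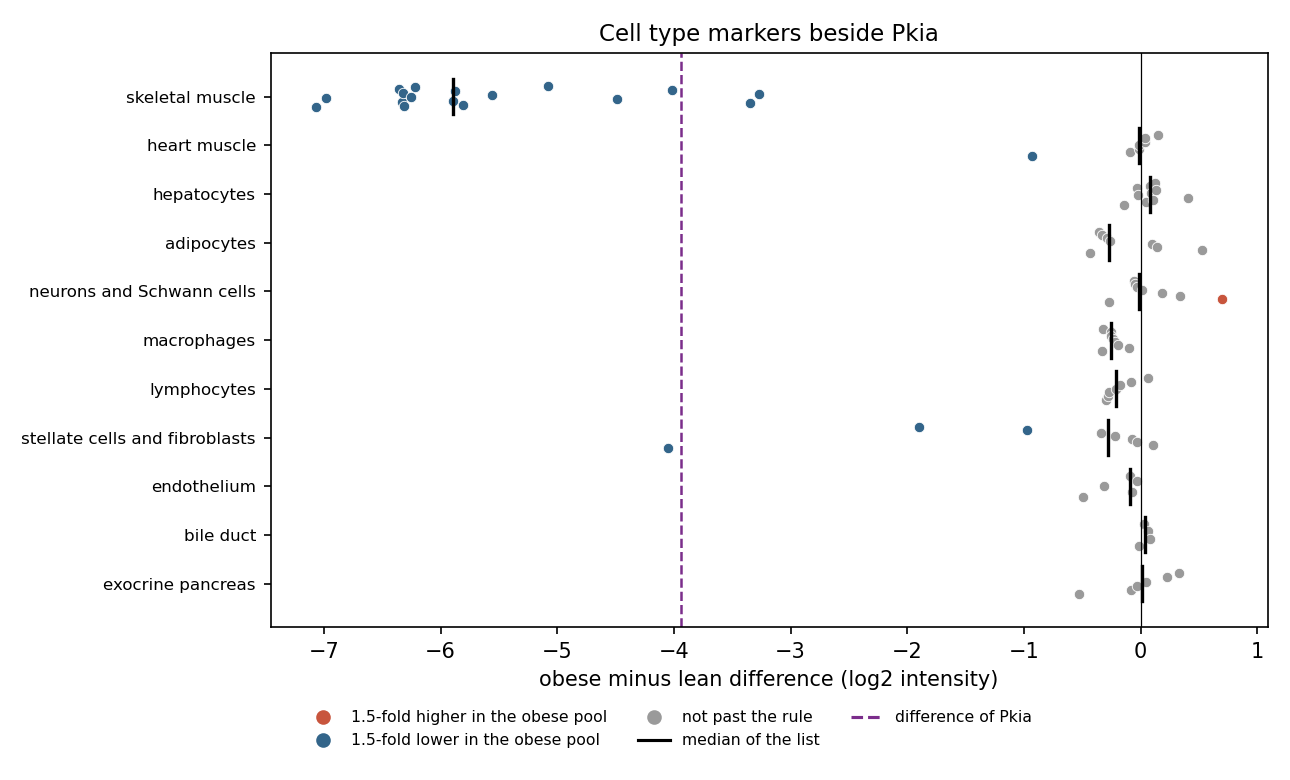
Obese minus lean difference in log2 intensity (horizontal axis) of marker genes of 11 cell types or tissues. Each point is a gene, black bars are list medians, colours mark the 1.5-fold rule and the dashed line is Pkia at -3.94; the 17 skeletal muscle markers lie between -7.07 and -3.27, and the other lists have medians between -0.28 and 0.08.

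Many genes upstream of the kinase lay below the level filter in both pools and could not pass the rule. The 11 lists of the cAMP pathway, upstream and downstream of the kinase, held 149 measured genes. By the 1.5-fold rule 4 of them were higher and 16 lower in obese liver, where 2.19% and 2.43% of all genes were. The other 129 did not pass, and the median difference of the 149 was -0.04. Of the 149, 88 reached the level filter in at least 1 pool, and the rest could not pass whatever their difference. None of 17 receptors that raise cAMP passed (median 0.10), but only 5 of them reached the level filter in a pool. The glucagon receptor Gcgr, the main such receptor of hepatocytes, had 8.28 and 8.49 in the obese pool, against 8.01 and 7.98 in the lean pool. Its obese arrays were both higher, by 0.38 in the mean. Of 12 receptors that lower cAMP, 4 reached the level filter in a pool and 1 was higher (median 0.18). This was Adora1, the adenosine A1 receptor, at 6.38 and 6.54 in the obese pool and 5.52 and 5.21 in the lean pool, or 2.14-fold higher (1.82 to 2.51). Its lean level lay below the level filter, so the fold has no firm size.

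None of the 9 G protein alpha subunits (median 0.00), 8 adenylyl cyclases (median -0.11) and 9 genes of the CREB family, its coactivators and salt-inducible kinases (median 0.01) passed the rule, nor did any of 9 phosphatase genes that oppose the kinase (median 0.08). The level filter was reached in a pool by 5 of the G proteins and 2 of the cyclases, and by all 9 genes of each of the other lists. The cyclase Adcy2 was 1.89-fold lower (1.41 to 2.53) but could not pass, because both pools lay below the filter. Gnas, the stimulatory G protein, had a difference of -0.12 and Adcy6, an adenylyl cyclase of liver, one of -0.06. Creb1 had a difference of 0.28 and its coactivator Crtc2 one of -0.07. When 1 array was left out the median took either sign for the receptors that raise cAMP (-0.08 without the obese technical replicate array), the G proteins (-0.04 without it and 0.04 without the obese original array), the CREB list (0.14 and -0.09) and the phosphatases (0.18 and -0.05). The median of the receptors that lower cAMP was 0.07 and that of the cyclases -0.06 without the obese technical replicate array.

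Of 16 cAMP phosphodiesterases, which end the signal by hydrolysing cAMP, 2 were lower and 0 higher (median -0.09), and 9 reached the level filter in a pool. Pde8b was 2.16-fold higher (1.32 to 3.53) but could not pass, because both pools lay below the filter. Pde4b had 6.23 and 5.70 in the obese pool, against 6.58 and 6.62 in the lean pool, and was 1.55-fold lower (1.27 to 1.88). Without the obese technical replicate array its difference was -0.36 and it no longer passed the rule. Pde7b was 1.6-fold lower (1.36 to 1.88), with an obese level below the level filter, and did not pass without the lean technical replicate array (-0.53). Pde3b, the phosphodiesterase that insulin activates, had a difference of -0.05.

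Anchoring proteins and cAMP-binding proteins that were lower are known from muscle. Of 21 A-kinase anchoring proteins 2 were lower and 0 higher (median 0.03). Akap6, which anchors the kinase at the nuclear envelope of striated muscle, had 4.74 and 4.44 in the obese pool, against 5.73 and 5.79 in the lean pool, and was 2.26-fold lower. Synm, a muscle filament protein that binds the kinase, was 1.69-fold lower. Of 10 other cAMP effectors and partners 1 was lower, Popdc3, a cAMP-binding membrane protein of striated muscle, at 3.25 and 3.53 in the obese pool and 6.04 and 6.13 in the lean pool (median of the list -0.20). All 3 obese levels lay below the level filter, the skeletal muscle markers were lower in the same pool, and their part in these differences was not tested.

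**Figure D4:**
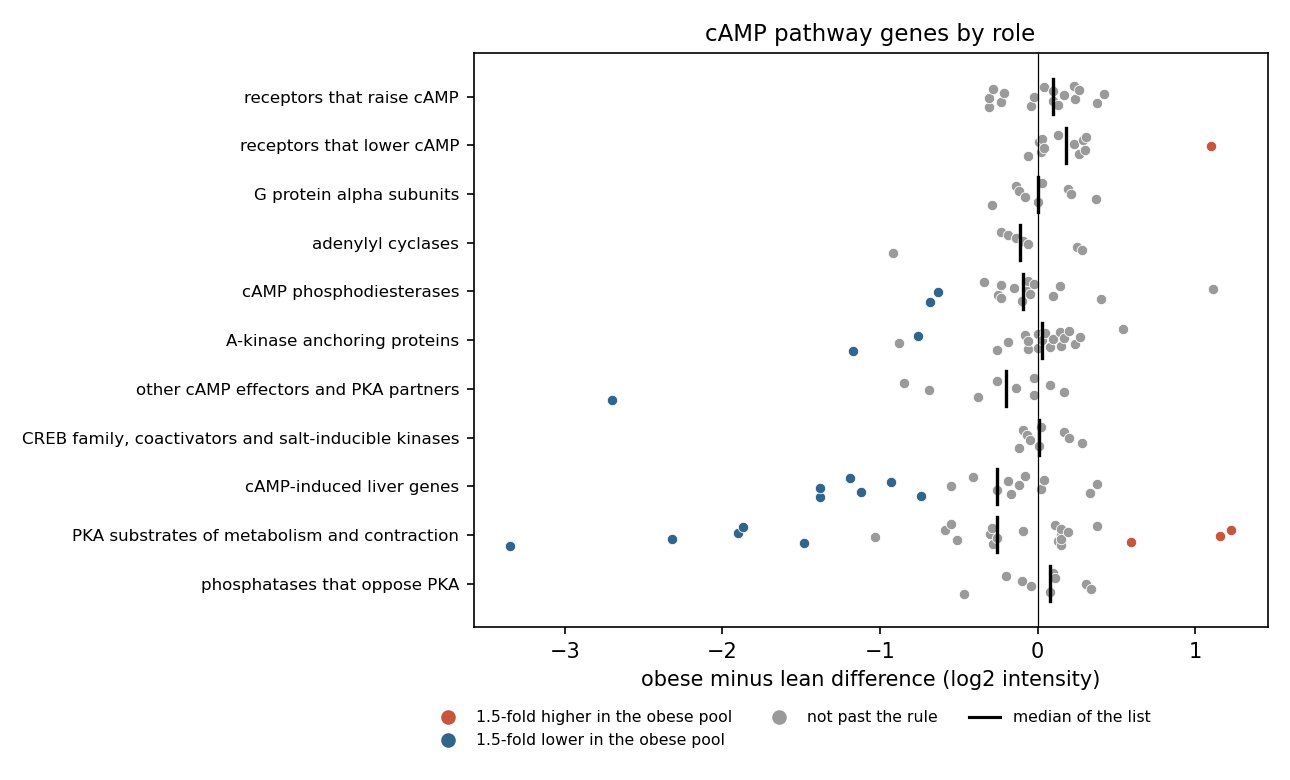
Obese minus lean difference in log2 intensity (horizontal axis) of 149 cAMP pathway genes in 11 lists by role. Each point is a gene, black bars are list medians and colours mark the 1.5-fold rule. Most lists centre near 0, and most lower genes stand in the lists of cAMP-induced liver genes and of kinase substrates. The level filter was reached in a pool by 14 of 17 and 20 of 25 genes of these lists, against 88 of all 149. The other genes could not pass whatever their difference.

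Of 25 measured genes for substrates of the kinase, 3 were higher and 5 lower (median -0.26, and -0.13 without the obese original array). The lower genes were Ryr1, the calcium release channel of skeletal muscle, at -3.35, Phkg1 and Phka1, muscle subunits of phosphorylase kinase, at -2.32 and -1.90, Gys1, the muscle glycogen synthase, at -1.87, and Ppp1r1a, an inhibitor of protein phosphatase 1, at -1.48. None of these 5 reached the level filter on the obese arrays, and Phkg1 did not pass without the lean original array, which left its lean level under the filter. Among genes that did not pass, the differences were 0.19 for Phkg2, the liver form of the catalytic phosphorylase kinase subunit, 0.15 for the liver glycogen synthase Gys2, 0.13 for the liver glycogen phosphorylase Pygl, -0.55 for Pfkfb1, an enzyme that sets the level of an activator of glycolysis in liver, and -0.59 for Phkb, a phosphorylase kinase subunit. Left-out arrays brought both of the last past the rule as lower: Pfkfb1 without the obese original (-0.68) or the lean original array (-0.59), and Phkb without the obese original (-0.81) or the lean technical replicate array (-0.71). The higher genes were the acetyl-CoA carboxylase Acaca (1.23), the liver pyruvate kinase Pklr (1.16) and the carboxylase Acacb (0.59), which did not pass without the obese original (0.53) or the lean original array (0.58). Ryr1 is also 1 of the 17 skeletal muscle markers counted above. The part of muscle RNA, whose markers were lower in the same pool, was not tested for the lower substrates.

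Of 17 liver genes that cAMP is known to induce, 6 were lower and 0 higher in the obese pool (median -0.26). Nr4a1, an orphan nuclear receptor of the immediate early class, had 5.10 and 5.01 in the obese pool, against 6.56 and 6.32 in the lean pool, and was 2.60-fold lower (2.32 to 2.92) with an obese level below the level filter. Sds, the serine dehydratase of amino acid breakdown, had 7.12 and 6.94 in the obese pool, against 7.91 and 8.01 in the lean pool, or 1.90-fold lower (1.73 to 2.09). Dusp1, a phosphatase of MAP kinases, was 1.67-fold lower (1.55 to 1.79), at 8.19 and 8.02 in the obese pool and 8.83 and 8.86 in the lean pool. That the obese arrays lay below the lean arrays for these 3 genes follows from the rule and is no further result. The other three were Ppargc1a (-1.38), a coactivator whose obese level lay below the level filter, Igfbp1 (-1.19) and G6pc1 (-1.12). Muscle expresses Nr4a1 and Ppargc1a as well, and the part of muscle RNA in their differences was not tested.

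Of the 17 induced genes 13 had differences below 0 and 4 above, many of them small. The share of all genes below 0 was not computed, so this count has no background to be set against. The level filter was reached in a pool by 14 of the 17, and not by Fos, Nr4a2 and Nr4a3. Pck1, the enzyme that commits to gluconeogenesis, had 12.03 and 12.01 in the obese pool and 12.25 and 12.30 in the lean pool. Tat, the tyrosine aminotransferase, went the other way, with 11.75 and 11.69 in the obese pool, against 11.38 and 11.40 in the lean pool. Crem, Per1 and Fos had differences of 0.02, 0.04 and -0.08, with overlapping arrays in each. Junb, Nr4a2 and Nr4a3 did not pass the rule either, with differences of -0.19, -0.17 and -0.41. Their obese arrays were both below their lean arrays, as for 18.5% of all genes.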

How the data were processed

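Per the labels' protocols, RNA of 4 rats per phenotype was pooled, and labelling started from 100 ng of pooled RNA. The deposited table holds linear-scale intensities, which the authors made by RMA according to the submitters' processing notes; the software version, genome build and the step back to a linear scale are not given in the sources used here. Detection calls were not used here.

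The log2 of each intensity was taken, with no further normalisation. Of 29214 probe sets 15310 carried 1 symbol in the platform annotation, 323 several and 13581 none listed there. Of the 15310, 15279 matched RefSeq of GRCr8 by gene identifier, and 0 symbols changed. The probe set with the highest mean stood for a gene. All 9 members had probe sets, 1 of them (Prkacb) 2. Array medians on the log2 scale were 4.69 to 4.79, and differences between arrays of a pool had an SD over genes of 0.27 in the obese and 0.20 in the lean pool. The size rules were tested on simulated data, with noise taken from the arrays of a pool. Changes were planted only in genes at or above the median level, and no variation between animals was simulated. Cyclic loess used limma 3.58.1 in R 4.3.3.

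Members, lists and rules were chosen with earlier results of these data known. Genes named are the members and up to 4 genes per list past the 1.5-fold rule, with Alb and Apoa1 for hepatocytes. Gcgr, Gnas, Adcy2, Adcy6, Creb1, Crtc2, Pde3b, Pde8b, Phkg2, Gys2, Pygl, Pfkfb1 and Phkb were chosen after their values were seen. So were Ppp1r1a, Acaca, Pklr, Acacb, Sds, Dusp1, Pck1, Tat, Crem, Per1, Fos, Junb, Nr4a2 and Nr4a3, and the sequence display. Protein sequences were not analysed here.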

Additional observations from a re-analysis of the deposited data

How the results depend on the processing

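The differences of the 9 genes and of most other named genes, the counts by the 1.5-fold rule and the list medians were recomputed under 11 alternatives. The shares of genes with non-overlapping arrays were not. No paired analysis was possible because each phenotype is 1 pool. Pkia stayed 1.5-fold lower under all 11, with differences from -4.09 to -3.12, the smallest with an offset of 16, and the other 8 genes passed the rule under none. The 17 skeletal muscle markers were lower under all 11 (median -6.15 to -5.20). Mbp did not pass with the offset (0.55) or the mean of probe sets (0.48). The median over the 9 genes, -0.01, took either sign. It was -0.03 to 0.01 when 1 array was left out, 0.01 on the original arrays alone and with array medians subtracted, -0.06 with cyclic loess and -0.07 with the mean of a gene's probe sets. The median over the cAMP pathway genes was -0.06 to -0.03 without 1 array, -0.02 on the original arrays alone, with array medians subtracted and with the offset, and -0.07 with cyclic loess. The median over all genes was 0.03 to 0.04 without 1 array, 0.00 with cyclic loess, 0.05 with array medians subtracted and 0.02 with the offset. The number of genes 1.5-fold higher was 258 to 553 without 1 array and 615 on the original arrays alone. Cyclic loess turned the split of 317 higher and 352 lower into 227 and 400. Of the 20 pathway genes past the rule 16 passed under all 11, and Acacb, Pde4b, Pde7b and Phkg1 did not. Without the level filter 5 pathway genes were higher and 21 lower. Genes below the level filter are limited by an unknown background.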
